A study of Mus musculus with 10 samples.

Results

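The genes described here are 35 genes that mark macrophages and other white blood cells, out of 18193 genes represented on the arrays. They were taken by name from the probe annotation, using only probe sets assigned to 1 gene symbol, and where a gene had several, the one brightest on average across all 10 arrays stood for it. All 35 had such a probe set. The genes were chosen with earlier results of these data known, so comparisons of them with all genes are a description. Expression was measured in CGR8 cells, a mouse embryonic stem (ES) cell line of strain SV129, and in cells differentiated from them. EBIO (1-ethyl-2-benzimidazolinone) opens small- and intermediate-conductance calcium-activated potassium channels. ES cells given EBIO at 1 mM over 3 days (n = 3, passages 25, 26 and 27) were set against untreated ES cells of the same passages (n = 3). Differentiated cells kept for 5 days as embryoid bodies and for 10 further days with EBIO (n = 2) were set against differentiated cells kept for the same times without it (n = 2). The labels give no EBIO dose for the differentiated cells. All samples come from 1 cell line, and a culture grown from embryoid bodies is a mixture of cell types. The design text describes the samples of a group as independent experiments, so p-values refer to the spread between such experiments.

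Macrophages arise from blood progenitors, and in embryoid bodies they can form among the mesodermal cells. Their growth and survival depend on signalling through the receptor encoded by Csf1r, and the transcription factors PU.1 (encoded by Spi1) and IRF8 set much of their gene programme. Mature macrophages bind antibody through Fc receptors that signal through adaptors with an ITAM motif. They also make the complement protein C1q, lysozyme and a superoxide-producing oxidase, and they share membrane and cytoskeletal proteins such as CD45 and coronin with other white blood cells.

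In differentiated cells, all 35 genes were lower with EBIO than without it, and no control array was as low as any EBIO array for any of the 35. Over all 18193 genes, 34.7 percent had this arrangement. The median difference of the 35 genes, EBIO minus control, was -5.35 on the log2 scale, against 0.03 for all genes. Of these genes, 33 lay above the median of all probe sets on both control arrays, and 29 of those 33 (87.9%) lay below it on both EBIO arrays. In all, 31 of the 35 ended under the array median on both EBIO arrays, against 1 of 35 in control differentiated cells. Among all 18193 genes, 35.3 percent were under the median on both EBIO arrays. Among the 11838 genes above the median on both control arrays, 5.95 percent were under it on both EBIO arrays.

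**Figure D1:**
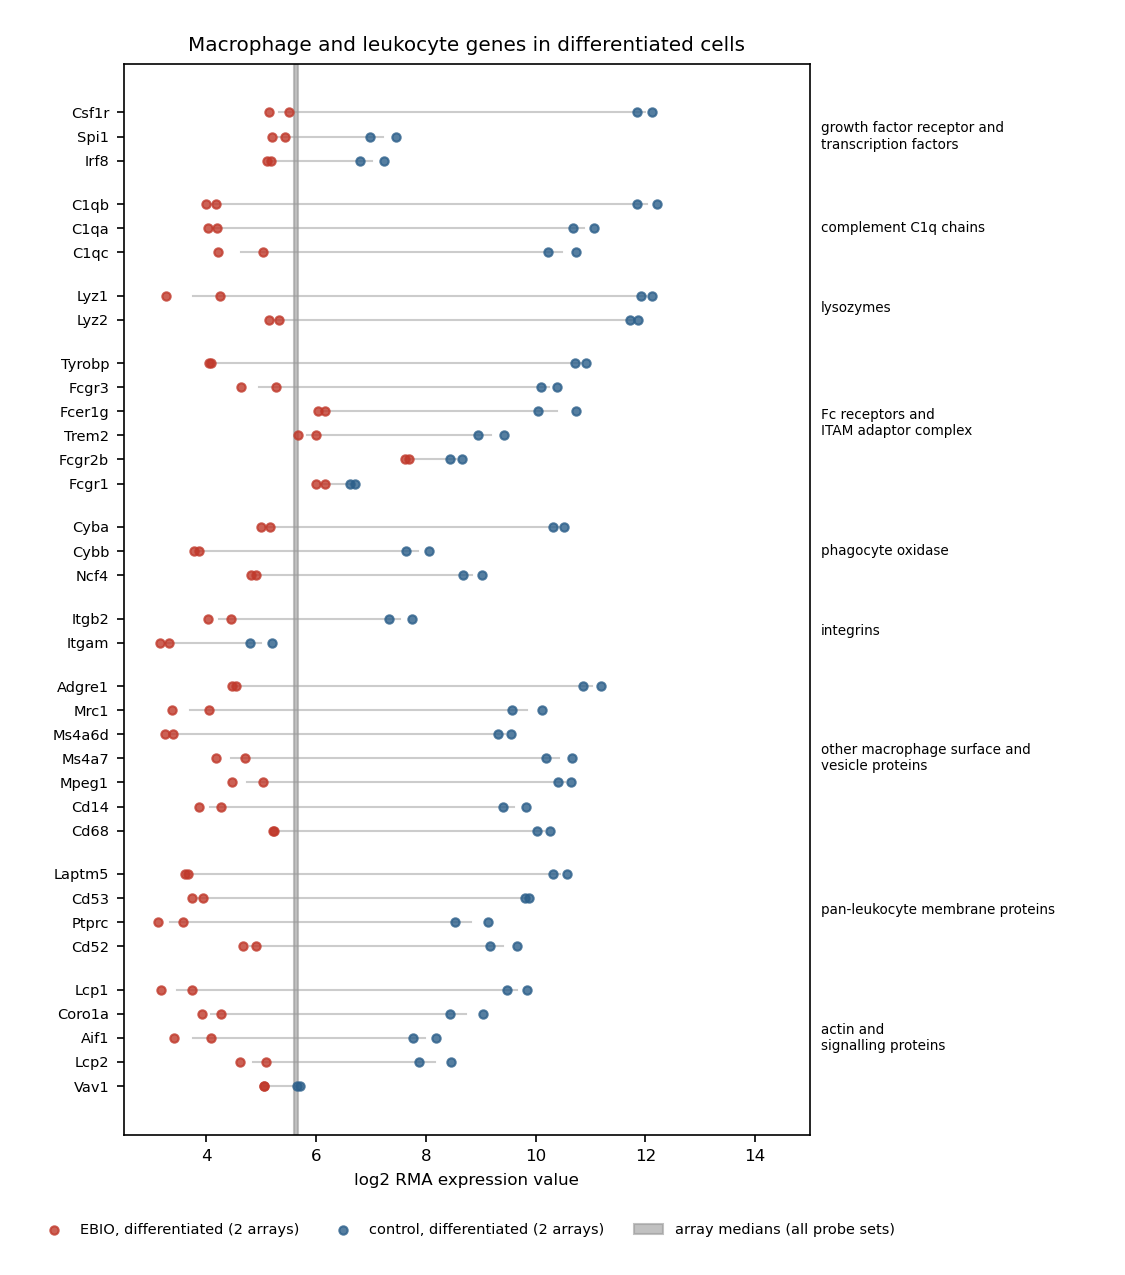
Log2 RMA expression values of the 35 genes (horizontal axis) in differentiated cells with EBIO (red, 2 arrays) and without EBIO (blue, 2 arrays), grouped by role; grey lines join the group means and the grey band spans the array medians. All red points lie left of the blue points of the same gene, and only Fcer1g, Trem2, Fcgr2b and Fcgr1 are above the median of both EBIO arrays.

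The limma test across genes covered those above the array median on 2 or more of the 4 arrays. It covered 33 of the 35 genes here, and all 33 were called lower with EBIO at an adjusted p under 0.05, with none higher. Of these, 29 entered the test through the control arrays alone and could hardly have been called higher, so this count is a description. Among the 12330 genes tested, 32.6 percent were called lower and 33.3 percent higher. Without the filter, all 35 genes were called lower and none higher, with adjusted p between 5.48e-06 and 0.00405; of all 18193 genes 23.5 percent were then called lower. With the filter, a fall of at least 2-fold was called for 31 of the 33 genes tested, against 12.4 percent of all genes tested. A fall of at least 16-fold was called for 25 of the 33, against 1.25 percent. With 2 arrays in each group, the number of arrays limits the precision. RMA values this low hardly separate a scarce transcript from an absent one, so folds against levels under the array median carry that limit. In bulk samples such as these, fewer cells of a type and less RNA per cell cannot be told apart.

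The promoters of the genes were examined for motifs, which played no part in the choice of genes. The 250 bases before the transcription start (RefSeq, build GRCm38.p6) were searched for GAGGAAG on either strand, the core of the sites that PU.1 binds, and for TATAAA on the gene's strand. A RefSeq promoter was matched for 25 of the 35 genes. GAGGAAG was present in 8 of these 25 (32.0%), against 3244 of 27025 genes with a promoter (12%). TATAAA was present in 2 of the 25, Irf8 and Laptm5 (8.0%), against 2415 of 27025 genes (8.94%). No match overlapped another. A match is a description of the letters and not a binding site. The 8 genes were C1qc, Fcgr1, Fcgr3, Itgam, Laptm5, Mrc1, Trem2 and Vav1. The last 100 bases before the start are printed for 5 of them that recur in the results, 5' to 3' on the gene's strand, with GAGGAAG or its reverse complement CTTCCTC in capitals.
Laptm5, chr4:130913216-130913315, plus strand: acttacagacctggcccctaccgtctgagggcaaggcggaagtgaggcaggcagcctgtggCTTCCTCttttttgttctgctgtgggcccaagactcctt
Mrc1, chr2:14229314-14229413, plus strand: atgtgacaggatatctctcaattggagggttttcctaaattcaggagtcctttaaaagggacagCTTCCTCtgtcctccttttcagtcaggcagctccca
Trem2, chr17:48346301-48346400, plus strand: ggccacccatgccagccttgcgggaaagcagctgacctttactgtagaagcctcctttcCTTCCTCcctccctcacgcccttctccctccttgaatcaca
Fcgr3, chr1:171059395-171059494, minus strand: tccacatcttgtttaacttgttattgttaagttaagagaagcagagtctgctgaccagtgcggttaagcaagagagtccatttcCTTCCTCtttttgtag
Vav1, chr17:57279000-57279099, plus strand: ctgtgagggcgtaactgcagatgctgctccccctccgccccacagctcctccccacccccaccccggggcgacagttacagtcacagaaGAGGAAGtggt
In these 5 windows the motif begins 39 bases before the start in Laptm5, 36 in Mrc1, 41 in Trem2, 16 in Fcgr3 and 11 in Vav1. The expression differences of these genes are given with each role.

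Csf1r, the receptor for the macrophage growth factors CSF1 and IL-34, lay near the top of the control arrays. Its log2 values were 5.50 and 5.15 on the EBIO arrays, against 11.85 and 12.13 on the control arrays. The difference was -6.66 (SE 0.15, limma adjusted p = 2.21e-06), a 101-fold fall, and it took the gene to the 45.9th percentile of probe sets, against the 98.1st in control cells. Spi1, which encodes PU.1, had 5.43 and 5.20 with EBIO, against 6.98 and 7.47 without. Irf8, a partner of PU.1 in myeloid cells, had 5.10 and 5.18 with EBIO, against 6.80 and 7.23 without. Both transcription factor genes fell below the array median with EBIO: the differences were -1.91 (SE 0.17, adjusted p = 0.000251) for Spi1 and -1.88 (SE 0.15, adjusted p = 0.000138) for Irf8.

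The 3 chains of complement C1q, the recognition part of the classical complement pathway, fell together. C1qb had 4.0 and 4.17 with EBIO, against 11.85 and 12.22 without, a difference of -7.95 (SE 0.14, adjusted p = 1.58e-06). C1qa had 4.03 and 4.20 with EBIO, against 10.69 and 11.07 without, a difference of -6.76 (SE 0.14). C1qc had 5.04 and 4.21 with EBIO, against 10.23 and 10.74 without, a difference of -5.86 (SE 0.30). The arrays of each group lay within 1 log2 unit of each other for all 3 chains, far less than the gap between the groups.

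Lysozyme, an enzyme that cleaves bacterial cell walls, is encoded in mice by the neighbouring copies Lyz1 and Lyz2, and Lyz1 showed the largest fall of the 35 genes. Lyz1 had 3.27 and 4.24 with EBIO, against 11.93 and 12.12 without, a difference of -8.26 (SE 0.30, adjusted p = 9.4e-06), or 307-fold. Lyz2, the form typical of macrophages, had 5.15 and 5.33 with EBIO, against 11.72 and 11.87 without, a difference of -6.55 (SE 0.09, adjusted p = 1.52e-06). The genes are near-identical, and the Lyz1 probe set is of the type whose probes may match other transcripts (_x_at), so signal from the copies may not be separate. A second _x_at probe set for Lyz1 differed by -8.25, while a probe set without that mark was dim in both groups and differed by -0.34. The promoters are shown for the last 100 bases before each start. Laid side by side without gaps, they have 92 of these 100 positions in common, and 152 of all 250 bases before the start.
Lyz1, chr10:117292869-117292968, minus strand: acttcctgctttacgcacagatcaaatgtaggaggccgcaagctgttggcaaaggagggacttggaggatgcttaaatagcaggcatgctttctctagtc
Lyz2, chr10:117282273-117282372, minus strand: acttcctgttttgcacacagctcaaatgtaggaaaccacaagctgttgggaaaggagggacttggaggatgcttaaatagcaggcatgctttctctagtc
Neither window holds GAGGAAG.

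The Fc receptors and their ITAM signalling partners were the most uneven group. Tyrobp, the adaptor also called DAP12, had 4.05 and 4.09 with EBIO, against 10.72 and 10.92 without, a difference of -6.75 (SE 0.09, adjusted p = 1.52e-06). Fcgr3, an activating receptor for IgG, had 4.64 and 5.27 with EBIO, against 10.10 and 10.40 without, a difference of -5.30 (SE 0.22). Both ended below the array median. Fcer1g, the common gamma chain of activating Fc receptors, had 6.04 and 6.16 with EBIO, against 10.05 and 10.73 without. Trem2, a lipid-sensing receptor that signals through DAP12, had 5.68 and 6.0 with EBIO, against 8.95 and 9.43 without. Their differences were -4.30 (SE 0.22) and -3.35 (SE 0.18), and both remained above the array median with EBIO.

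Among the 33 genes tested with the filter, the smallest falls also belonged to this group. Fcgr2b, the inhibitory IgG receptor, had 7.70 and 7.62 with EBIO, against 8.44 and 8.65 without, a difference of -0.89 (SE 0.09, adjusted p = 0.000473). Fcgr1, the high-affinity IgG receptor, had 6.0 and 6.16 with EBIO, against 6.62 and 6.71 without, a difference of -0.58 (SE 0.09, adjusted p = 0.00179). The groups did not overlap for either gene. These values come from the brightest probe set of each gene, and other probe sets differed more. A second Fcgr1 probe set had 4.26 and 4.01 with EBIO, against 8.16 and 8.26 without, a difference of -4.08. A second Fcgr2b probe set had 2.76 and 3.29 with EBIO, against 8.74 and 8.86 without, a difference of -5.77, and the next largest Fcgr2b differences were -2.98 and -2.20. The remaining Fcgr2b probe set was dim in both groups, at 2.73 and 2.75 with EBIO, against 2.73 and 2.59 without. The size of the Fcgr1 and Fcgr2b differences thus depended on the probe set.

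The phagocyte oxidase makes superoxide in the vesicles of phagocytes. Cyba, its membrane subunit p22phox, had 5.00 and 5.16 with EBIO, against 10.33 and 10.52 without, a difference of -5.35 (SE 0.10). Cybb, the catalytic subunit gp91phox, had 3.87 and 3.79 with EBIO, against 7.64 and 8.06 without, a difference of -4.02 (SE 0.14). Ncf4, the cytosolic subunit p40phox, had 4.91 and 4.82 with EBIO, against 8.68 and 9.03 without, a difference of -3.99 (SE 0.13). All 3 subunits were under the array median with EBIO and above it without.

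The integrin genes encode the chains of the complement receptor Mac-1. Itgb2, the beta chain, had 4.45 and 4.03 with EBIO, against 7.33 and 7.75 without, a difference of -3.30 (SE 0.19, adjusted p = 4.53e-05). Itgam, the alpha chain better known as CD11b, had 3.17 and 3.32 with EBIO, against 4.80 and 5.20 without. It was under the array median on all 4 arrays and so was not tested with the filter. Its difference was -1.76, with an adjusted p of 0.000385 when no filter was used.

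A further 7 genes of the macrophage surface and vesicles were each called lower, and all ended under the array median. Adgre1, the macrophage marker F4/80, had 4.54 and 4.48 with EBIO, against 10.86 and 11.20 without, a difference of -6.52 (SE 0.12, adjusted p = 1.79e-06). Mrc1, the mannose receptor, had 3.37 and 4.05 with EBIO, against 9.58 and 10.11 without, a difference of -6.14 (SE 0.26). These falls were 91.6-fold for Adgre1 and 70.5-fold for Mrc1. Cd68, a lysosomal glycoprotein, had 5.22 and 5.23 with EBIO, against 10.02 and 10.27 without, the smallest difference of the 7 genes at -4.92 (SE 0.10). Cd14, the co-receptor for lipopolysaccharide, had 4.28 and 3.88 with EBIO, against 9.41 and 9.82 without. The pore-forming protein gene Mpeg1 differed by -5.78, and the tetraspan genes Ms4a6d and Ms4a7 by -6.12 and -5.98. The median difference of the 7 genes was -5.98.

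Genes found in white blood cells at large fell as well. Laptm5, a lysosomal membrane protein of blood cells, had 3.61 and 3.66 with EBIO, against 10.57 and 10.33 without, a difference of -6.81 (SE 0.10, adjusted p = 1.52e-06). Ptprc, which encodes the pan-leukocyte phosphatase CD45, had 3.59 and 3.12 with EBIO, against 8.53 and 9.13 without, a difference of -5.48 (SE 0.24, adjusted p = 1.58e-05). Cd53, a leukocyte tetraspanin, had 3.95 and 3.74 with EBIO, against 9.89 and 9.80 without. Cd53 differed by -6.0 and Cd52, a small anchored glycoprotein, by -4.62. With EBIO, Ptprc was at the 11.5th percentile of probe sets, against the 81.6th without.

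Among actin and signalling proteins, Lcp1 (L-plastin, an actin-bundling protein of leukocytes) had 3.74 and 3.18 with EBIO, against 9.49 and 9.85 without, a difference of -6.20 (SE 0.21). Coro1a, the leukocyte coronin, had 3.92 and 4.27 with EBIO, against 8.44 and 9.04 without, a difference of -4.64 (SE 0.22). Both lay above the median in control cells and below it with EBIO. Aif1, the calcium-binding protein Iba1, differed by -4.23 (SE 0.25), and Lcp2, the adaptor SLP-76, by -3.31 (SE 0.23). Vav1, a signalling protein of blood cells, had 5.05 and 5.06 with EBIO, against 5.70 and 5.66 without. It was above the median on 1 control array only and so was not tested with the filter. Its difference was -0.63, with an adjusted p of 0.00133 when no filter was used, and a second Vav1 probe set had 3.93 and 3.89 with EBIO, against 6.19 and 6.15 without.

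The 35 genes had 64 probe sets in all, and 17 genes had more than 1. Of the 29 probe sets not used to represent a gene, 17 lay above the median on both control arrays, and 16 of these were lower with EBIO by at least 1 log2 unit. The exception was a Laptm5 probe set with 7.0 and 6.65 with EBIO, against 6.55 and 6.61 without. Its difference of 0.25 was opposite to that of the Laptm5 probe set used, and another pair of Laptm5 probe sets differed by -2.83 and -2.84. A second Trem2 probe set was below the median on all 4 arrays and differed by 0.06. When all probe sets of a gene were averaged, 10 genes had differences smaller by over 1.5 times, though each was still called lower. They were -2.63 for Laptm5, -4.17 for Csf1r, -2.76 for Ptprc, -3.44 for Cd53, -3.08 for Ms4a7 and -3.91 for Ms4a6d. The others were -2.82 for Coro1a, -1.90 for Lcp2, -2.38 for Cybb and -1.65 for Trem2. For 2 genes the averaged difference was larger by over 1.5 times, at -2.33 for Fcgr1 and -2.35 for Fcgr2b.

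**Figure D2:**
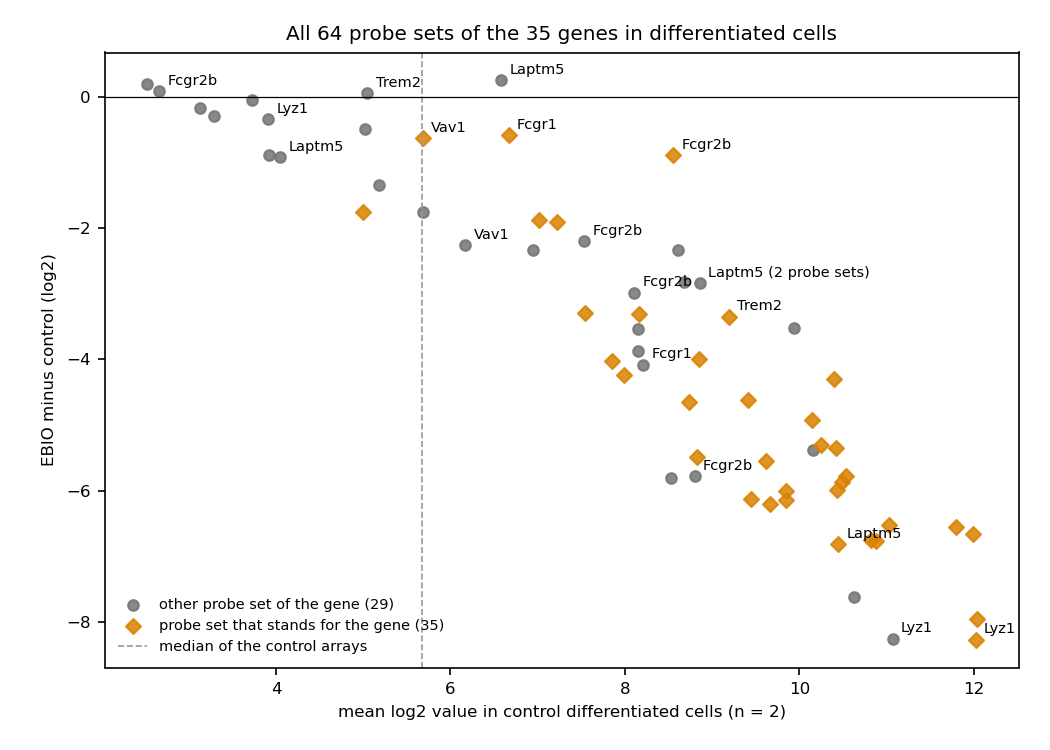
EBIO minus control in differentiated cells (vertical axis, log2) against the mean log2 value in control differentiated cells (horizontal axis, n = 2) for the 64 probe sets of the 35 genes; diamonds are the 35 probe sets that stand for a gene, circles the 29 others, and the dashed line the median of the control arrays. Right of the dashed line, the Laptm5 probe set at 0.25 is the only point above 0.

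The control differentiated arrays differed from each other in these genes. On the second control array 32 of the 35 genes (91.4%) were higher than on the first, by a median of 0.37, against 49.1 percent of the 12330 genes tested. The corresponding count for the EBIO arrays was 18 of 35. The summed linear expression value of the 35 genes was 1105 and 1094 on the EBIO arrays, against 37100 and 45590 on the control arrays. The spread between the control arrays was therefore far smaller than the difference between the groups.

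Markers of other cell types moved too, and their part in the result was not tested. All 10 cardiomyocyte markers rose, with summed linear values of 93760 to 95780 with EBIO, against 9791 to 11260 without. All 10 fibroblast markers fell, with sums of 8616 to 8816 with EBIO, against 65400 to 67180 without. All 8 endothelial markers tested, of 10 measured, fell, with sums of 555.6 to 558.9 with EBIO, against 1753 to 1784 without. All 8 liver and endoderm markers tested, of 9 measured, fell, with sums of 380.8 to 410.7 with EBIO, against 4648 to 6483 without. Under the array median were 7 endothelial and 5 liver and endoderm markers with EBIO, against 2 and 1 without. The filter thus favoured a fall in these 2 lists. Of all genes tested, 32.6 percent were called lower and 33.3 percent higher. All 10 epithelial markers fell, by a median of -2.07. Of 8 neural markers tested, 5 rose and 2 fell. Of 5 pluripotent cell markers tested, 1 rose and 1 fell. The probe sets for the 3' and 5' ends of Actb, a measure of RNA integrity, differed by 0.48 and 0.45 with EBIO, against 0.46 and 0.40 without.

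Other genes of myeloid cells were examined as a list of 52, of which 46 were measured and 37 tested. Of these 37, 34 fell, 1 rose and 2 were not called, with a median difference of -2.25. Over all 12330 genes tested the median was 0.02, and 32.6 percent were called lower. Of the 46 measured, 30 were under the array median with EBIO and 8 without. Many thus entered the test through the control arrays alone, which favours a fall, so the count and median are a description. Plek (pleckstrin) differed by -6.16 and Ctss (cathepsin S, a lysosomal protease) by -5.69. Cx3cr1, the fractalkine receptor, had 5.48 and 5.35 with EBIO, against 8.54 and 8.93 without. Csf2ra, a receptor chain for GM-CSF, was the gene that rose, by 0.25 (adjusted p = 0.0367), a call lost in 8 alternatives. Runx1 and Ccr2 were not called, with differences of -0.12 (adjusted p = 0.202) and -0.09 (adjusted p = 0.533). The scavenger receptor Cd163 was below the 7th percentile of probe sets in both groups, at 3.06 and 2.99 with EBIO, against 3.08 and 2.90 without.

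Genes of neighbouring blood lineages were mostly too dim to test. Of 13 measured T, B and NK cell genes only 3 were tested, and limma called none of them (none at an unadjusted p under 0.05 either). Of 12 measured neutrophil and mast cell genes 1 was tested and not called, also at an unadjusted p under 0.05. Among blood progenitor, erythroid and megakaryocyte genes, 4 of 9 tested fell and 1 rose. Pf4, a platelet chemokine, differed by -4.70 and Cd34, a progenitor and endothelial marker, by -4.19, while Itga2b rose by 0.25. Of 8 osteoclast genes measured 4 were tested and all 4 fell, with Acp5 and Mmp9 each at -2.70. All 8 were under the array median with EBIO. The 4 thus entered the test through the control arrays alone and could hardly have been called higher. Among all genes tested, 32.6 percent were called lower. Of 5 microglia genes tested 4 fell, with Gpr34 at -3.72 and Olfml3 at -3.70. The fifth, Sall1, a transcription factor gene also active outside microglia, had 6.78 and 6.92 with EBIO, against 3.47 and 3.33 without.

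Genes of antigen presentation by MHC class II did not follow one direction. Of 3 tested, H2-Eb1 fell by 0.95 and Cd74 by 0.37, whereas H2-DMa rose by 0.84. Neither ligand gene of Csf1r was called. Csf1 had 9.83 and 9.85 with EBIO, against 10.05 and 9.97 without, a difference of -0.17 (adjusted p = 0.0824). Il34 was too dim to test, at 4.49 and 4.84 with EBIO, against 5.43 and 5.36 without. Apoe, a lipid carrier made in quantity by macrophages and by other cells, had 8.33 and 7.80 with EBIO, against 12.14 and 12.36 without, a difference of -4.19 (SE 0.18, adjusted p = 1.64e-05). The Apoe fall was not particular to differentiated cells. In ES cells Apoe had 7.54, 8.07 and 7.82 with EBIO, against 12.34, 12.11 and 11.82 without. That difference was -4.28 (SE 0.18, limma adjusted p = 1.05e-06).

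**Figure D3:**
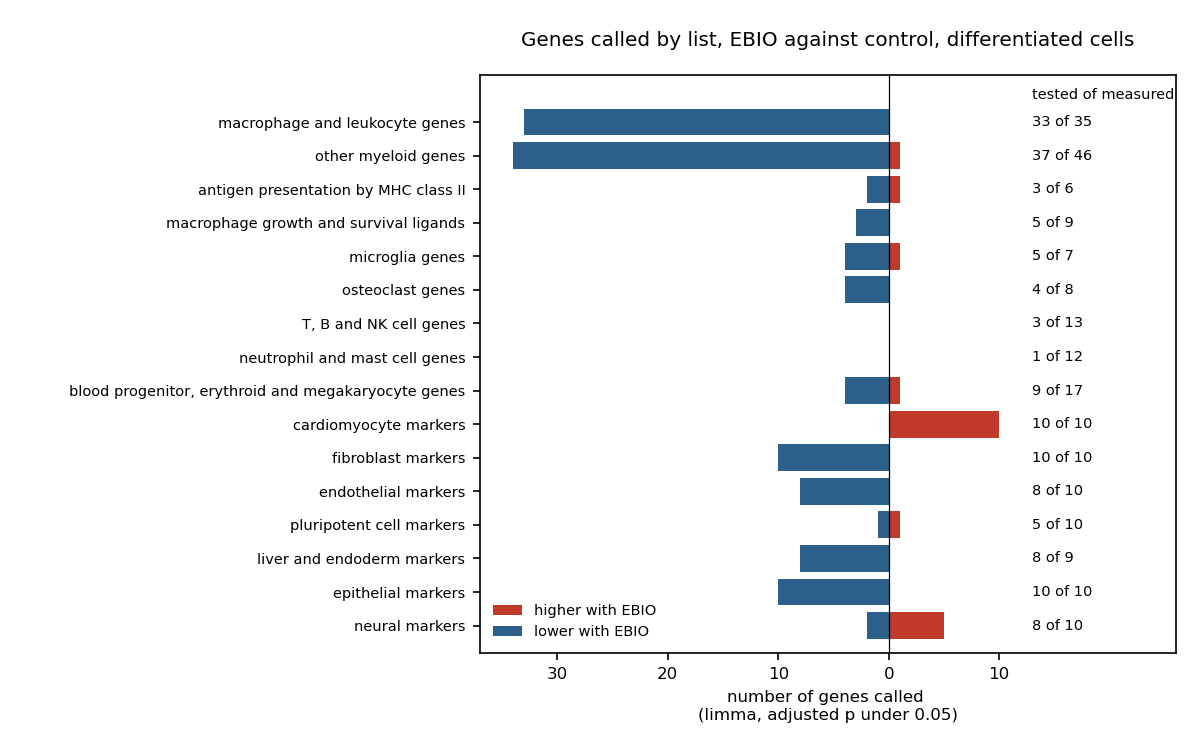
Number of genes called higher (red, right of 0) and lower (blue, left of 0) with EBIO in differentiated cells for the 35 genes and the other lists, with the number tested of those measured at the right. The 35 genes (33 lower) and the other myeloid genes (34 lower, 1 higher) have the longest bars to the left, while all 10 cardiomyocyte markers lie on the right.

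Few of these genes ranked high in ES cells. Since the ES arrays and the differentiated arrays had been normalized as separate sets, levels are compared between the stages only as the rank of a probe set on its own array. The median percentile rank of the 35 genes was 36.2 in ES cells with EBIO and 36.3 in control ES cells. It was 32.5 in differentiated cells with EBIO and 88.6 in control differentiated cells. More than the 75th percentile was reached by 2 genes in ES cells with EBIO (Fcgr2b and Cyba) and by 3 in control ES cells (Laptm5, Fcgr2b and Cyba). In differentiated cells it was reached by 0 genes with EBIO and by 27 without. The rank of Fcgr2b in ES cells depended on the probe set. Several of its other probe sets were above the median on 0 of the 6 ES arrays, while another was above it on all 6.

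**Figure D4:**
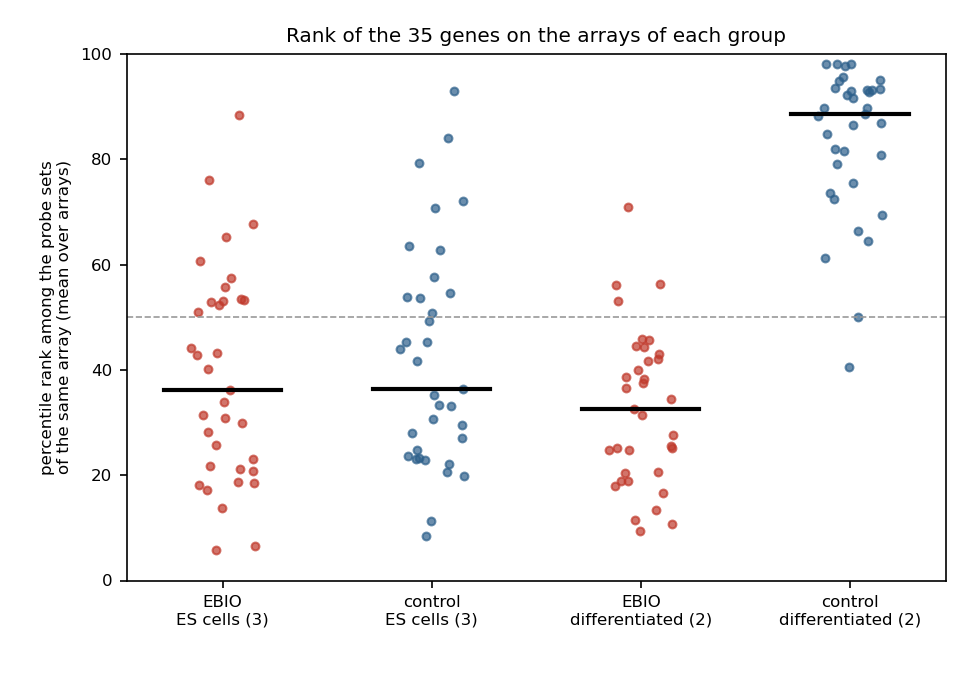
Percentile rank of each of the 35 genes among all probe sets of the same array (vertical axis, mean over the arrays of a group), in the 4 groups; points are genes, black bars the medians and the dashed line the 50th percentile. The medians are 36.2, 36.3 and 32.5 in both ES groups and in EBIO-treated differentiated cells, against 88.6 in control differentiated cells.

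All 3 arrays of control ES cells were above their medians for 9 genes: Laptm5, Cd68, Fcgr2b, Cyba, Coro1a, Lcp2, Trem2, Spi1 and Irf8. In ES cells with EBIO it was 11 genes, with Csf1r, Tyrobp and Fcgr3 added and Laptm5 no longer among them. These sets depended on the probe set used. For Irf8, Lcp2, Coro1a, Fcgr2b, Laptm5 and Csf1r, another probe set was above the median on 0 of the 6 ES arrays. The filter left 13 genes to test between the ES groups, of which 3 fell, 1 rose and 9 were not called. Over all 12096 genes tested 21.2 percent fell and 23.5 percent rose, so the share of these genes that fell was near that of all genes. Without regard to the test, all EBIO arrays lay under all control arrays for 11 of the 35 genes, against 22.0 percent of all genes. With no filter 5 of the 35 were called lower, against 14.7 percent of all genes. With each gene's probe sets averaged, 8 of the 35 were tested, of which 3 were called lower and 1 higher. The median difference of the 35 genes was -0.12, against -0.05 over all genes.

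Laptm5 stood apart in ES cells. Its values were 4.79, 4.44 and 4.84 with EBIO, against 8.72, 9.26 and 9.34 without. The difference was -4.42 (SE 0.19, adjusted p = 1.15e-06), a 21.4-fold fall that took the gene to the 53.2nd percentile with EBIO, against the 92.9th without. The probe set used is of the _x_at type. Its other probe sets also differed in ES cells, by -2.04, -1.36, -0.30 and -0.18, so the size of the fall depended on the probe set. Pluripotency genes fell in the same ES arrays: all 10 markers of pluripotent cells were called lower, with sums of 4745 to 5279 with EBIO, against 32360 to 35140 without, and whether the Laptm5 fall belongs with theirs was not tested.

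Cyba was the gene that rose. It had 8.34, 8.51 and 8.12 with EBIO, against 7.44, 7.90 and 7.40 without, a difference of 0.75 (SE 0.17, adjusted p = 0.00762). Thus Cyba was 1.68-fold higher with EBIO in ES cells and 40.7-fold lower with EBIO in differentiated cells. Coro1a had 5.73, 5.67 and 5.54 with EBIO, against 5.99, 6.16 and 6.10 without, a difference of -0.44 (SE 0.12, adjusted p = 0.0163). Spi1 had 4.92, 4.89 and 4.87 with EBIO, against 5.21, 5.23 and 5.33 without, a difference of -0.36 (SE 0.11, adjusted p = 0.0273). The groups did not overlap for Cyba, Coro1a or Spi1, but the falls of Coro1a and Spi1 were small. Without control replicate 2 or EBIO replicate 3, Laptm5 alone was called lower.

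Cd68 had 5.62, 5.40 and 5.26 with EBIO, against 6.37, 5.67 and 5.76 without. The groups did not overlap, and the difference of -0.51 (SE 0.20) missed the threshold (adjusted p = 0.0684) in the planned fit, which had no pairing. Cd68 passed it with passage as a block (adjusted p = 0.0103), with the 4 groups in 1 fit (adjusted p = 0.036) and without control replicate 3 (adjusted p = 0.0451). The other alternatives that tested Cd68 did not call it. Fcgr2b, by the probe set used, ranked at the 76.1st percentile in ES cells with EBIO and the 79.3rd without. It had 6.70, 6.42 and 6.86 with EBIO, against 7.23, 6.65 and 6.97 without, and was not called (-0.29, adjusted p = 0.224). Csf1r, at 4.76, 4.54 and 4.74 with EBIO, against 4.61, 4.53 and 4.71 without, lay close to the array medians and differed by 0.06 (adjusted p = 0.715). Its ligand gene Csf1 had 8.12, 7.77 and 7.57 with EBIO, against 4.69, 4.45 and 4.86 without, a rise of 3.15 (adjusted p = 3.65e-06). With the probe sets of Csf1 averaged the rise was 1.43 (limma adjusted p = 6.33e-05), so its size depended on the probe set. Of 18 other myeloid genes tested in ES cells 4 fell and 1 rose, with Inpp5d at -4.01, Lgals3 at -2.44 and Arhgdib at 1.40. Over all 12096 genes tested 21.2 percent fell and 23.5 percent rose, so the share of this list that fell was near that of all genes. The 3' and 5' Actb probe sets differed by 0.08, 0.14 and 0.20 in ES cells with EBIO, against 0.33, 0.50 and 0.44 in control ES cells. Those of Gapdh overlapped between the groups, at 0.045, 0.013 and 0.012 with EBIO, against 0.010, 0.058 and -0.085 without.

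The EBIO effects of both stages were compared as a difference of differences over the 4 groups. For 11 of the 13 genes tested at both stages the effect in differentiated cells was lower than that in ES cells, at an adjusted p under 0.05. Of these 13 genes, 10 had passed the filter in differentiated cells through the control arrays alone, which favours a lower effect there, so the count is a description. Over the 13706 genes that passed the filter over all 4 groups, 25.0 percent were called lower in this comparison. The gap was widest for Csf1r at -6.72 (SE 0.20, adjusted p = 3.45e-09) and Tyrobp at -6.67 (SE 0.22, adjusted p = 6.02e-09). For Cyba, which rose in ES cells and fell in differentiated cells, it was -6.09 (SE 0.24, adjusted p = 1.74e-08). For Laptm5, which fell at both stages, it was -2.39 (SE 0.27, adjusted p = 3.31e-05). Fcgr2b at -0.59 (SE 0.25, adjusted p = 0.0781) and Fcgr1 at -0.41 (SE 0.25, adjusted p = 0.216) were not called. This depended on the probe set used: with each gene's probe sets averaged, all 13 genes were called. As the stages were normalized separately, compression at the low end of each scale can differ between them.

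**Figure D5:**
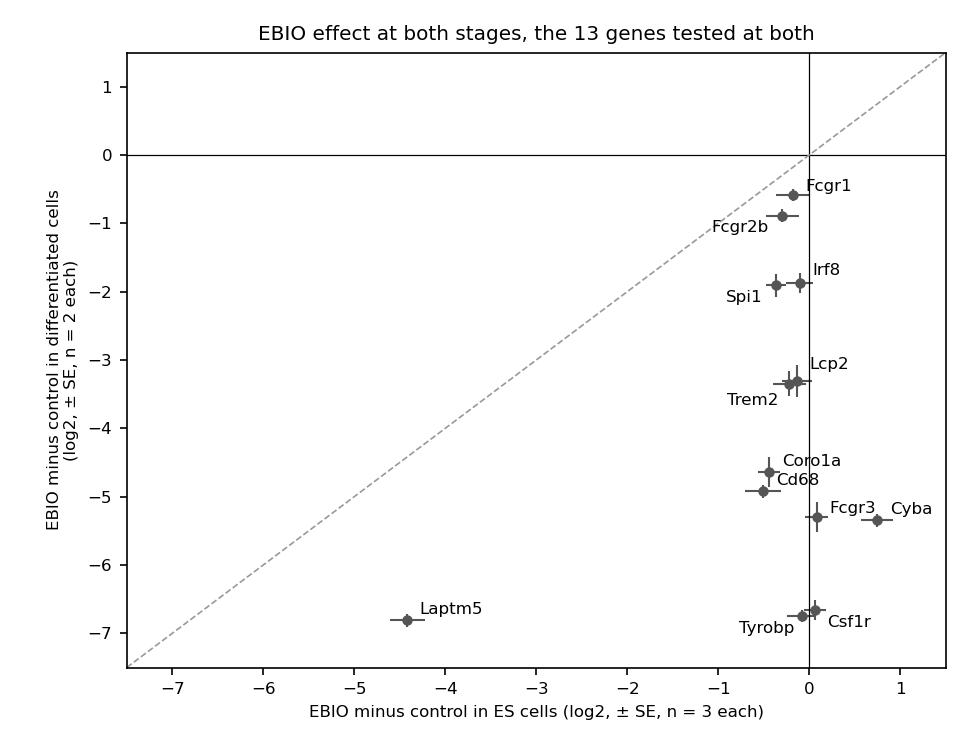
EBIO minus control in differentiated cells (vertical axis, log2, n = 2 each) against EBIO minus control in ES cells (horizontal axis, log2, n = 3 each) for the 13 genes tested at both stages; bars are standard errors and the dashed line marks equal effects. All 13 points lie below the dashed line, 11 of them with a called difference, and Laptm5 is the only gene far to the left of 0.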

How the data were processed

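The authors deposited log2 expression values made with RMA from Affymetrix arrays, per the submitters' processing notes; total RNA had been labelled with biotin in 1 cycle, per the labels' protocols, which name BioConductor. Software versions are not given in the sources used here. In RMA, background is subtracted, arrays are brought to a shared distribution and probes are combined into probe set values. The quantiles of any pair of arrays differed on average by at most 0.0931 within ES cells, at most 0.0497 within differentiated cells and at least 0.910 between them, so each stage had been normalized as a set of its own.

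Of 45101 probe sets, 64 were controls; 34958 had 1 gene symbol in the platform annotation, 932 several and 9211 none. Only the first kind was used, with symbols updated through RefSeq, and the brightest on average stood for its gene. Models were fitted with lmFit and eBayes of limma 3.58.1 (R 4.3.3) to the deposited log2 values, without further normalization, with Benjamini-Hochberg adjustment over all genes tested and a threshold of 0.05. The filter asked that a gene be above the array median on as many arrays as the smallest group has, or more. EBIO was compared with control within each stage separately, and the difference between stages was fitted on all 4 groups. The code was tested on simulated data.

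Same-numbered ES arrays share a passage, so the numbers pair them by label. Their deviations from group means correlated at 0.328, 0.231 and 0.618. EBIO replicate 2 correlated slightly more with control replicate 1 (0.244) than with control replicate 2. The planned fit had no pairing. Alternatives were no filter, a filter at the 75th percentile, averaging each gene's probe sets, quantile normalization of all 10 arrays, all groups in 1 fit, replicate blocks, an intensity trend with robust variance, and leaving out each array.

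The genes and the comparison lists were chosen with earlier results of these data known. All 35 genes were named whatever their result. From each other list the rule named the called genes with the largest change in each direction, at most 2, and Csf1 and Il34 in any case. Cx3cr1, Cd163, Runx1 and Ccr2 were named outside the rule after their values were seen. No promoter from chromosome 18, where Csf1r and Cd14 lie, is printed.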

Additional observations from a re-analysis of the deposited data

Results flagged for a closer look

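For 11 of the 13 genes tested at both stages, the EBIO effect differed (limma, difference of differences on the log2 scale, differentiated minus ES). The values were -6.72 for Csf1r, -2.39 for Laptm5, -4.42 for Cd68, -6.67 for Tyrobp, -5.38 for Fcgr3, -6.09 for Cyba, -4.21 for Coro1a, -3.17 for Lcp2, -3.13 for Trem2, -1.54 for Spi1 and -1.77 for Irf8. Adjusted p lay between 3.45e-09 for Csf1r and 0.000106 for Spi1. Among all 13706 genes tested, 45.5 percent differed between the stages in either direction, and 25.0 percent were called lower. Of the 13 genes, 10 had passed the filter in differentiated cells through the control arrays alone. That favours a lower effect there, so the count is a description.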

How the results depend on the processing

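In differentiated cells each of the 33 genes was called lower under every alternative that tested it; the number called was 35 without the filter, 26 of 26 with the filter at the 75th percentile, 34 when probe sets were averaged per gene and 33 to 34 when an array was left out, with none higher. With probe sets averaged, the difference was smaller by over 1.5 times for 10 genes and larger for 2, Fcgr1 and Fcgr2b, as given in the results. With the 25th percentile in place of the median, 8 genes were below the mark on both EBIO arrays; the mean over probe sets gave 33 under the median. Over all genes, 2526 were called lower with the filter at the 75th percentile, against 4022, since fewer genes were tested, and 2576 were called higher with the 4 groups in 1 fit, against 4110; leaving out an array gave 3541 to 3615 lower and 3352 to 3509 higher. In ES cells 5 of the genes were called lower without the filter (Itgb2 and Ms4a6d added), 1 with the filter at the 75th percentile, 5 with the 4 groups in 1 fit, and 1 to 3 when an array was left out; over all genes the last gave 1988 to 2883 lower and 2379 to 3006 higher. Cyba was called higher in each of those leave-outs. Without control ES replicate 1 the uncalled differences of Tyrobp (0.0597), Lcp2 (0.0159) and Irf8 (0.0173) turned positive, and without control replicate 3 they were -0.2319 for Tyrobp, -0.2877 for Lcp2 and -0.2243 for Irf8; the cause was not tested. Between the stages 11 to 12 of the 13 genes were called when an array was left out. With probe sets averaged, all 13 genes were called between the stages, and with replicate blocks 12. The replicate block in ES cells gave 4 genes lower, Cd68 added, and 1 higher. In differentiated cells same-numbered arrays share only a number, and their deviations correlated at -0.129; the replicate block gave 33 genes lower there, with 3761 lower and 3732 higher over all genes, and the crossed pairing, chosen after seeing the data, gave 33, 4040 and 4075. Csf1 in differentiated cells was called with quantile normalization of all 10 arrays (adjusted p = 0.0257) and with the intensity trend (adjusted p = 0.0482). The other alternatives did not call it. With its probe sets averaged the Csf1 difference was -0.017 (limma adjusted p = 0.828), and with the 4 groups in 1 fit the adjusted p was 0.511. Csf2ra lost its call in 8 alternatives. Signal near the low end of RMA limits how far a fall can be measured.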
